A study of Mus musculus with 8 samples.

Results

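The respiratory chain and ATP synthase are built from subunits encoded by nuclear and mitochondrial DNA, and their transcripts were followed here in Yumm5.2 cells, a mouse melanoma line labelled C57B/6J for its strain. Members were the rows of the gene table whose symbols start as the subunit families do: Nduf for complex I, Sdh for complex II, Uqcr and Cyc1 for complex III, Cox4 to Cox8 for complex IV, Atp5 for complex V, and mt-Nd, mt-Co, mt-Atp and mt-Cytb. Names marked as pseudogenes or antisense by a suffix were left out. The rule found 104 of 55492 rows, 91 of them nuclear and 13 mitochondrially encoded. Of these, 46 belong to complex I, 4 to complex II, 10 to complex III, 24 to complex IV and 20 to complex V, with Ndufa4 and Ndufa4l2 counted under complex IV. Polyadenylated RNA was sequenced from 4 libraries of cells treated with 4-OI and 4 libraries of cells given DMSO, the solvent, all after 20 h. The design text calls the agent a permeable form of itaconate, and in the field 4-OI stands for 4-octyl itaconate; the sources used here state no dose. All 8 libraries come from 1 cell line, without a genetic change named in the labels. The labels do not say whether the libraries of a group came from separate cultures, so p-values measure the spread between these libraries.

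Complex I passes electrons from NADH, and complex II from succinate, to coenzyme Q. Complex III hands them to cytochrome c and complex IV to oxygen, and complex V uses the resulting proton gradient to make ATP. Mitochondrial DNA is copied into long transcripts that are cut into messages for core subunits of complexes I, III, IV and V, while complex II is wholly nuclear. Itaconate itself is known as a competitive inhibitor of complex II.

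Libraries held between 22962963 and 31361677 counts. The cells lacked the usual melanocyte transcripts: 7 of 8 melanocytic markers, among them Mlana, Tyr and Dct, were under 10 counts in every library, and Mitf, the exception, averaged 9.98 CPM (counts scaled to each library's adjusted total) with 4-OI and 6.42 CPM with DMSO. The melanocytic markers summed to 9.81 to 10.9 CPM in 4-OI libraries and 6.44 to 7.502 CPM in DMSO libraries. All 4 fibroblast and mesenchymal markers (Col1a1, Col1a2, Pdgfra, Pdgfrb) were expressed, with summed levels of 1811 to 1896 CPM in 4-OI libraries and 2599 to 2763 CPM in DMSO libraries. Col1a2 made up most of that sum, at a mean of 1691 CPM with 4-OI and 2455 CPM with DMSO, while Pdgfra averaged 114 CPM with 4-OI and 107 CPM with DMSO. Both endothelial and all 3 epithelial markers were under 10 counts in every library, as were 3 of 4 leukocyte markers, the exception being Cd68 at 39 to 64 counts. The part of these markers in the results on the respiratory chain was not tested. In RNA from a bulk culture, fewer cells of a kind and less RNA per cell cannot be told apart.

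Some mitochondrial messages share letters with each other or with the nucleus, and this bears on the counts of those genes. Mouse mt-Atp8 and mt-Atp6 lie on 1 message and overlap by 43 bases, and mt-Nd4l and mt-Nd4 overlap by 7. The junctions are given from GENCODE M21 transcripts on GRCm38, at chrM:7897-7999 and chrM:10137-10203 on the plus strand, with the overlap in capitals.
mt-Atp8 to mt-Atp6: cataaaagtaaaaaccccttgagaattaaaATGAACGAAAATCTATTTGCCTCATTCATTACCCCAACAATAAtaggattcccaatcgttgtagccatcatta
mt-Nd4l to mt-Nd4: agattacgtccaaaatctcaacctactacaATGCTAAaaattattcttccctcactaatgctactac
The first 100 bases of mt-Co2, at chrM:7013-7112 on the plus strand, also stand in a nuclear pseudogene, Gm28661, and a read from there fits both places.
mt-Co2 and Gm28661: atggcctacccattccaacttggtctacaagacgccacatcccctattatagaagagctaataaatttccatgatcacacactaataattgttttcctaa

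Respiratory chain transcripts moved little with 4-OI, and most of those that passed the test fell. Of the 92 members with enough counts to test, 2 rose and 16 fell (edgeR quasi-likelihood F test, adjusted p under 0.05), which is 19.6% of members. Over all 13531 genes tested the share was 38.8%, with 2607 higher (19.3%) and 2646 lower (19.6%), so the members' share lay below this background. Among genes at 10 CPM or more the shares were 19.8% of 91 members and 46.9% of 8976 genes. The median log2 fold change, 4-OI over DMSO, was -0.03 over the members and 0.00 over all genes tested. The median size of the change, sign aside, was 0.06 for members and 0.12 for all genes on the log2 scale. At 10 CPM or more it was 0.06 for members and 0.09 for all genes. In 2 members every 4-OI library was higher than every DMSO library and in 12 every one was lower; over all genes the shares were 17.4% and 18.0%, or 35.4% together. The number of falls depended on single libraries: without 4-OI replicate 1 it was 9, where 17.3% of all genes fell, and without DMSO replicate 4 it was 10, where 17.7% of all genes fell.

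**Figure D1:**
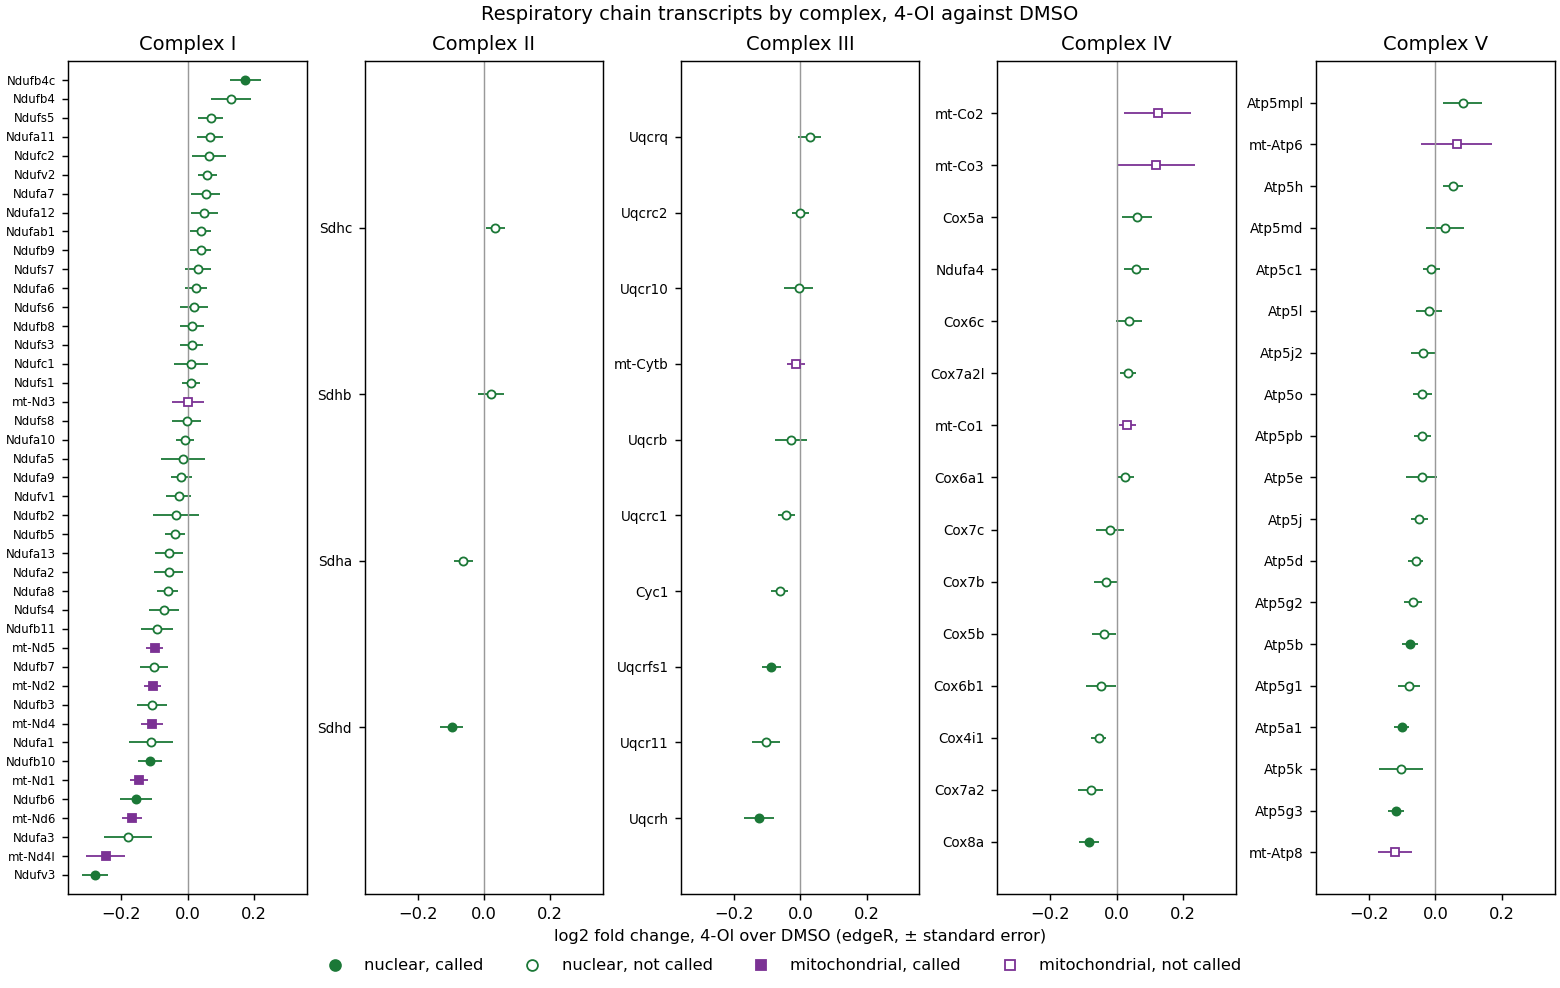
Log2 fold change of the tested members, 1 left out, 4-OI over DMSO, with its standard error from edgeR, by complex (4 libraries a group). Squares are mitochondrially encoded and circles nuclear genes, and filled symbols passed the test; all 6 filled squares lie left of 0 in complex I, and Ndufv3 lies lowest at -0.28.

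By genome of origin, 6 of 13 mitochondrially encoded members fell and none rose, with a median log2 fold change of -0.10. All 6 encode complex I subunits. Of 79 tested nuclear members, 2 rose and 10 fell, with a median of -0.03. The shares called were 46.2% of mitochondrially encoded and 15.2% of nuclear members. Beside them stand 38.8% of all genes and 46.9% of genes at 10 CPM or more. The mitochondrial share thus lay near that of genes at 10 CPM or more, and the nuclear share below both. The mitochondrial median was -0.06 without 4-OI replicate 1. It was -0.0032 in a limma fit on log2(TPM + 1) and 0.0053 on log2(FPKM + 1), where the sign turned. The nuclear median was -0.01 without 4-OI replicate 1 and -0.0031 without DMSO replicate 4. Mitochondrially encoded members held 2.63% to 2.87% of a library's counts in 4-OI libraries and 2.73% to 2.80% in DMSO libraries, ranges that overlap. Nuclear members held 0.90% to 0.92% with 4-OI and 0.91% to 0.94% with DMSO.

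The mt-Nd proteins form the proton-pumping membrane arm of complex I. Transcripts of 6 of the 7 fell by 0.10 to 0.25 on the log2 scale, and mt-Nd3 was not called. mt-Nd1 had 3603, 3703, 3644 and 3857 CPM in 4-OI libraries, against 4187, 4118, 3981 and 4098 CPM in DMSO libraries. Every 4-OI library lay below every DMSO library, and the log2 fold change was -0.15 ± 0.03 (SE; adjusted p 0.000214, edgeR). mt-Nd6, whose message comes from the opposite strand to the others, had 356, 380, 344 and 382 CPM with 4-OI and 419, 416, 400.4 and 406 CPM with DMSO. Here too the groups did not overlap, and the log2 fold change was -0.17 ± 0.03 (SE; adjusted p 0.000209, edgeR). Its reads cannot be told from antisense reads of the other strand's transcripts unless counting used strand, a setting that the sources used here do not state.

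mt-Nd2 and mt-Nd5 behaved much alike in size. mt-Nd2 had 2084, 2083, 2073 and 2227 CPM with 4-OI, against 2282, 2300, 2258 and 2267 CPM with DMSO. mt-Nd5 had 2674, 2671, 2591 and 2769 CPM with 4-OI, against 2921, 2884, 2871 and 2793 CPM with DMSO. In both genes 4-OI replicate 4 was the highest of its group and still below all DMSO libraries. Their log2 fold changes were -0.11 ± 0.03 for mt-Nd2 (SE; adjusted p 0.00332, edgeR) and -0.10 ± 0.03 for mt-Nd5 (SE; adjusted p 0.00462, edgeR).

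The overlapping pair mt-Nd4l and mt-Nd4, shown by its junction above, also fell. mt-Nd4l had the largest fall of the mitochondrial genes, at 210.1, 252, 213 and 276 CPM with 4-OI and 285, 285, 271 and 289 CPM with DMSO. mt-Nd4 had 2069, 2025, 2001 and 2275 CPM with 4-OI and 2321, 2257, 2244 and 2196 CPM with DMSO. In each gene 4-OI replicate 4 reached into the DMSO range and the other 4-OI libraries stayed below it. The log2 fold changes were -0.25 ± 0.06 for mt-Nd4l (SE; adjusted p 0.00236, edgeR) and -0.11 ± 0.03 for mt-Nd4 (SE; adjusted p 0.0157, edgeR). The mt-Nd4 call was lost without 4-OI replicate 3 or without DMSO replicate 1, with edgeR adjusted p-values of 0.0707 and 0.0531. mt-Nd3 had 196, 191, 205 and 232 CPM with 4-OI and 203, 208, 192 and 220.1 CPM with DMSO, a log2 fold change of 0.00 ± 0.05 (SE; adjusted p 0.984, edgeR).

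None of the other 6 mitochondrially encoded members was called. mt-Co1, the catalytic subunit of cytochrome c oxidase and the most counted member, had 8355, 8321, 8034 and 8211 CPM with 4-OI and 7880, 8044, 8130 and 8123 CPM with DMSO. mt-Cytb, the electron-carrying core of complex III, had 5001, 5177, 4984 and 5368 CPM with 4-OI and 5219, 5162, 5178 and 5160 CPM with DMSO. Their groups overlapped, with log2 fold changes of 0.03 ± 0.02 for mt-Co1 (SE; adjusted p 0.32, edgeR) and -0.01 ± 0.03 for mt-Cytb (SE; adjusted p 0.734, edgeR). mt-Atp8, an ATP synthase membrane subunit, had 241, 289, 262 and 308 CPM with 4-OI and 300.4, 297, 285 and 314 CPM with DMSO, a log2 fold change of -0.12 ± 0.05 (SE; adjusted p 0.0702, edgeR). It passed the test without 4-OI replicate 2, 4-OI replicate 4 or DMSO replicate 3, at edgeR adjusted p-values of 0.0027 to 0.0495. So it did with the replicate number as a block, with GC and length correction and without a count filter (edgeR adjusted p 0.0139, 0.0303 and 0.000375). DESeq2 did not call it (adjusted p 0.28). The sign turned on log2(TPM + 1) and log2(FPKM + 1), at 0.03 and 0.04 (limma adjusted p 0.666 and 0.635).

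mt-Co2, mt-Co3 and mt-Atp6 were the least certain, since nuclear pseudogenes that share their sequence were given more counts than the genes themselves. Annotated pseudogenes that share at least 100 stretches of 31 bases with a member numbered 45 for 30 members, and 12 of them resembled 9 mitochondrial genes. On chromosome 1, 7 of these lie together between 24611535 and 24616197 (GRCm38, GENCODE M21). Gm28661, whose 681 bases stand whole within mt-Co2, averaged 59678 counts per library, and mt-Co2 itself 20622. Gm28437 averaged 49336 counts beside 23007 for mt-Co3, and Gm10925 averaged 79618 beside 12863 for mt-Atp6. The copies' share of the joint count varied between libraries, at 69.1% to 77.8% for mt-Co2, 59.1% to 76.5% for mt-Co3 and 83.8% to 88.5% for mt-Atp6. Which place the reads came from cannot be told from the deposited tables.

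With each copy's counts added to its gene, a choice made after seeing the data, the libraries drew together for mt-Co2, mt-Co3 and mt-Atp6. They did not in every gene with copies. The spread grew for Atp5l in both groups, and for mt-Nd3 and mt-Nd4l among DMSO libraries. For Ndufb4 it grew among 4-OI libraries and shrank among DMSO libraries. mt-Co2 as deposited had 619, 813, 662 and 1014 CPM with 4-OI and 756, 771, 638 and 688 CPM with DMSO. Added to its copies it had 2700.1, 2883, 2834 and 3278 CPM with 4-OI and 3059, 2885, 2876 and 2847 CPM with DMSO. The coefficient of variation among 4-OI libraries was 8.49% after adding and 23.0% before. The log2 fold change became 0.00 ± 0.04 with copies, where it had been 0.12 ± 0.10 without (SE; adjusted p 0.959 and 0.356, edgeR). The same step gave 0.02 ± 0.03 for mt-Co3 (SE; adjusted p 0.66, edgeR) and 0.03 ± 0.04 for mt-Atp6 (SE; adjusted p 0.631, edgeR), and neither was called before or after. All 6 mt-Nd falls were called after adding too, and 18 members in all, where 39.0% of all genes were called. mt-Nd4 and mt-Nd4l, with copies at 14.6% to 18.3% and 10.2% to 16.6% of their joint counts, no longer overlapped between groups. Their log2 fold changes were then -0.12 ± 0.03 for mt-Nd4 (SE; adjusted p 0.00277, edgeR) and -0.25 ± 0.05 for mt-Nd4l (SE; adjusted p 0.000966, edgeR).

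**Figure D2:**
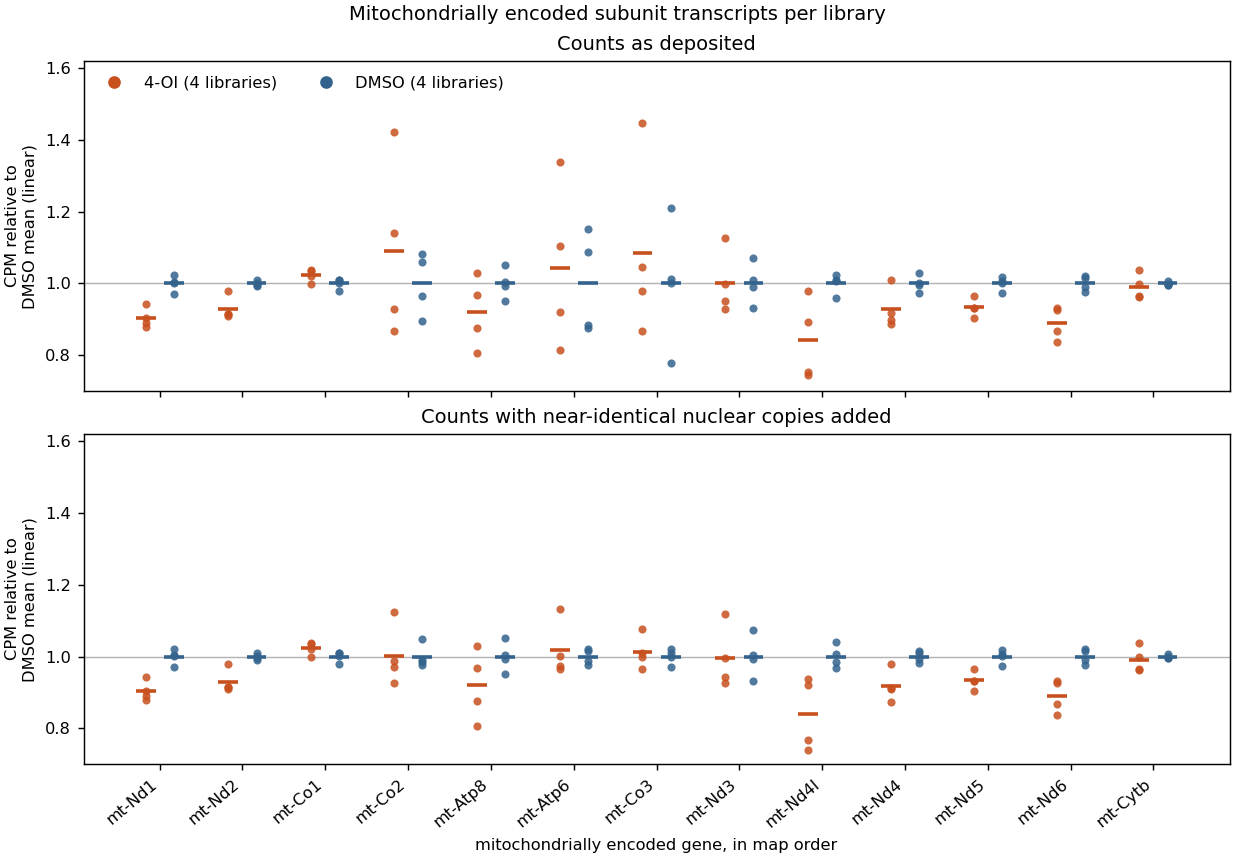
CPM of the 13 mitochondrially encoded members in each library, relative to the mean of the 4 DMSO libraries, as deposited (upper panel) and with near-identical nuclear copies added (lower panel); bars are group means. The spread of mt-Co2, mt-Atp6 and mt-Co3 narrows in the lower panel, and all 4-OI libraries of mt-Nd1, mt-Nd2, mt-Nd4l, mt-Nd4, mt-Nd5 and mt-Nd6 lie below all 4 DMSO libraries there.

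Summed with their copies, the 7 mt-Nd genes came to 11844 ± 422 CPM with 4-OI and 12910 ± 178 CPM with DMSO (SD, n = 4 each). The 3 mt-Co genes came to 13822 ± 354 CPM with 4-OI and 13597 ± 78.0 CPM with DMSO (SD, n = 4 each). The ratio of the mt-Nd sum to the mt-Co sum was 0.848, 0.859, 0.851 and 0.869 in 4-OI libraries, against 0.971, 0.958, 0.931 and 0.938 in DMSO libraries. The groups did not overlap in this ratio, which is given as a description with no test. It divides genes of which 6 of 7 were called lower by genes of which none was called, so it restates those calls. 4-OI replicate 4 was high in both sums, and its ratio lay near those of its group.

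**Figure D3:**
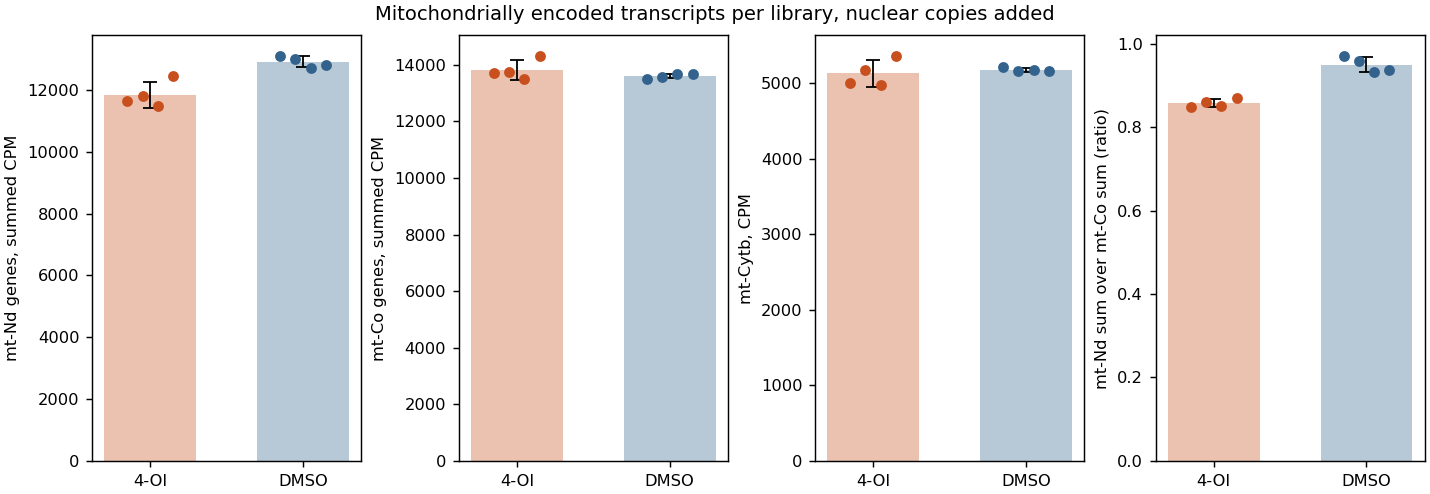
Summed CPM of the mt-Nd genes, of the mt-Co genes, CPM of mt-Cytb, and the ratio of the first sum to the second, with nuclear copies added; points are libraries, bars means and whiskers SD (4 libraries a group). The ratio is 0.848 to 0.869 with 4-OI and 0.931 to 0.971 with DMSO.

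Complex I has many nuclear subunits besides, and of 37 tested 2 rose and 3 fell, with a median log2 fold change of 0.00. That is 13.5% called, beside 38.8% of all genes. The summed CPM of nuclear complex I members was 2030 ± 47.1 with 4-OI and 2033 ± 36.0 with DMSO (SD, n = 4 each). Ndufv3, an accessory subunit of the flavoprotein module where NADH is oxidised, had the largest fall of all members. It had 39.0, 40.6, 42.3 and 39.9 CPM with 4-OI, against 46.2, 51.9, 50.5 and 48.2 CPM with DMSO. Its groups stood well apart, with a log2 fold change of -0.28 ± 0.04 (SE; adjusted p 1.36e-05, edgeR), and the call held in each of the 8 fits that left out 1 library. In deposited TPM, a per-length level, Ndufv3 averaged 131 ± 8.5 with 4-OI and 153 ± 7.6 with DMSO (SD, n = 4 each).

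The other nuclear complex I falls were Ndufb6 and Ndufb10, accessory subunits of the membrane arm. Ndufb6 had 30.3, 32.2, 34.2 and 33.9 CPM with 4-OI and 38.1, 34.2, 35.01 and 38.0 CPM with DMSO, a log2 fold change of -0.16 ± 0.05 (SE; adjusted p 0.0148, edgeR). Ndufb10 had 56.1, 60.1, 57.9 and 61.7 CPM with 4-OI and 64.7, 64.9, 59.6 and 65.7 CPM with DMSO, a log2 fold change of -0.11 ± 0.04 (SE; adjusted p 0.0209, edgeR). Both overlapped between groups by a single library. The Ndufb6 call was lost without 4-OI replicate 1, DMSO replicate 1 or DMSO replicate 4 (edgeR adjusted p 0.057 to 0.0684). The Ndufb10 call was lost without 4-OI replicate 1, 4-OI replicate 3 or DMSO replicate 1, 2 or 4 (edgeR adjusted p 0.0564 to 0.0938).

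Among the rises in complex I was Ndufb4c, with 36.1, 41.6, 40.4 and 39.8 CPM with 4-OI and 35.8, 36.7, 35.1 and 32.8 CPM with DMSO, a log2 fold change of 0.17 ± 0.05 (SE; adjusted p 0.00605, edgeR). Only 4-OI replicate 1 overlapped the DMSO libraries. GENCODE M21 annotates Ndufb4c as a processed pseudogene, and all its stretches of 31 bases stand in Ndufb4, an accessory subunit gene. Ndufb4c took 58.3% to 65.4% of their joint count. Ndufb4 alone had a log2 fold change of 0.13 ± 0.06 (SE; adjusted p 0.0941, edgeR). Counted together they had 59.5, 65.6, 63.6 and 63.6 CPM with 4-OI and 54.7, 56.9, 58.5 and 56.2 CPM with DMSO, with no overlap and a log2 fold change of 0.16 ± 0.03 (SE; adjusted p 0.00108, edgeR).

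Complex II, the enzyme that itaconate is known to inhibit, had 1 of its 4 genes called, or 25%, beside 38.8% of all genes. Sdhd, a membrane anchor subunit, had 65.7, 66.7, 65.2 and 72.5 CPM with 4-OI and 71.0, 72.5, 73.8 and 71.8 CPM with DMSO, a log2 fold change of -0.10 ± 0.03 (SE; adjusted p 0.0321, edgeR). 4-OI replicate 4 sat among the DMSO libraries, and the call was lost in 6 of the 8 fits that left out 1 library (edgeR adjusted p 0.0573 to 0.103), the exceptions being those without 4-OI replicate 4 or DMSO replicate 1. Sdha, the flavoprotein that oxidises succinate, had 269, 256, 265 and 249 CPM with 4-OI and 272, 270, 280 and 263 CPM with DMSO. Its groups overlapped, with a log2 fold change of -0.06 ± 0.03 (SE; adjusted p 0.0878, edgeR). Sdhb, the iron-sulfur subunit, and Sdhc, the other anchor, had log2 fold changes of 0.02 ± 0.04 (SE; adjusted p 0.686, edgeR) and 0.04 ± 0.03 (SE; adjusted p 0.365, edgeR).

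In complex III, 2 of 9 nuclear members fell and none rose, or 22.2% called, beside 38.8% of all genes. Uqcrfs1, the Rieske iron-sulfur protein, had 65.3, 65.0, 66.2 and 64.4 CPM with 4-OI, against 68.3, 70.7, 67.9 and 70.2 CPM with DMSO. The groups did not overlap, and the log2 fold change was -0.09 ± 0.03 (SE; adjusted p 0.0221, edgeR). Uqcrh, the hinge protein, had 47.0, 49.1, 48.4 and 54.5 CPM with 4-OI and 52.9, 53.9, 51.9 and 58.1 CPM with DMSO, a log2 fold change of -0.12 ± 0.04 (SE; adjusted p 0.0341, edgeR). The Uqcrfs1 call was lost without 4-OI replicate 1 or DMSO replicate 2 or 4 (edgeR adjusted p 0.0554 to 0.0706). The Uqcrh call was lost without 4-OI replicate 1, 2 or 3 or DMSO replicate 2 or 4 (edgeR adjusted p 0.0614 to 0.158). Uqcr11, the complex III gene with the highest nuclear TPM, averaged 569 ± 14.0 TPM with 4-OI and 601 ± 24.8 TPM with DMSO (SD, n = 4 each) and was not called, with a log2 fold change of -0.10 ± 0.04 (SE; adjusted p 0.0604, edgeR). Uqcrq stood at the other end, with a log2 fold change of 0.03 ± 0.03 (SE; adjusted p 0.553, edgeR).

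Of 12 tested nuclear complex IV members, 1 fell and none rose, or 8.33% called, beside 38.8% of all genes. Cox8a, the ubiquitous form of a small accessory subunit, had 144, 153, 154 and 153 CPM with 4-OI and 158, 168, 153 and 160 CPM with DMSO, a log2 fold change of -0.08 ± 0.03 (SE; adjusted p 0.0322, edgeR). The groups overlapped through DMSO replicate 3, and the call was lost without 4-OI replicate 1 or DMSO replicate 2 or 4 (edgeR adjusted p 0.0686 to 0.16). Cox5a had the highest fold change of the nuclear complex IV members, 0.06 ± 0.04 on the log2 scale (SE; adjusted p 0.293, edgeR). Cox6c had the highest TPM, 855 ± 41.0 with 4-OI and 822 ± 22.0 with DMSO (SD, n = 4 each), and a log2 fold change of 0.04 ± 0.04 (SE; adjusted p 0.476, edgeR).

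Complex IV is also where tissue-specific subunit forms are best known, and the cells used the widespread form in every pair. Cox4i1 held at least 99.98% of the TPM of the Cox4 pair in every library, and Cox4i2, its lung and low-oxygen form, had 1 count in all. The muscle forms Cox6a2 and Cox7a1 had 22 counts each over the 8 libraries, and Cox8b, Cox8c and Cox6b2 had none. Cox7a2 and Cox7a2l, which helps join complexes III and IV into supercomplexes, shared the Cox7a level. Cox7a2l took 47.4% ± 0.333 of it with 4-OI and 45.5% ± 0.931 with DMSO (SD, n = 4 each), and neither gene was called. Ndufa4l2, a low-oxygen relative of Ndufa4, had 16 counts in all. A count of 0 allows up to 3 counts per library. These genes, the pseudogenes Ndufa11b, Ndufs6b and Cox6c2, Cox7b2 with 2 counts, and a second Atp5o row at 0 make up the 12 members too low to test.

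Complex V had 3 falls and no rise among 17 tested nuclear members, or 17.6% called. Over all genes 38.8% were called and 19.6% fell. The complex V falls included genes of its catalytic core. Atp5a1 encodes the alpha and Atp5b the beta subunit of the catalytic head. Atp5a1 had 1137, 1149, 1158 and 1124 CPM with 4-OI, against 1223, 1244, 1209 and 1227 CPM with DMSO. Atp5b had 1581, 1612, 1578 and 1539.9 CPM with 4-OI, against 1631, 1691, 1676 and 1657 CPM with DMSO. The groups did not overlap in either gene, and the log2 fold changes were -0.10 ± 0.02 for Atp5a1 (SE; adjusted p 0.00128, edgeR) and -0.08 ± 0.02 for Atp5b (SE; adjusted p 0.0154, edgeR). The Atp5b call was lost without 4-OI replicate 1 or DMSO replicate 2 (edgeR adjusted p 0.051 to 0.0632). Summed nuclear complex V counts were 4398 to 4448 CPM with 4-OI and 4595 to 4691 CPM with DMSO, a sum that these genes dominate. Atp5mpl had the highest log2 fold change of the nuclear complex V members, 0.08 ± 0.06 (SE; adjusted p 0.291, edgeR).

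The rotor ring of ATP synthase is made of subunit c, which 3 genes encode with the same mature protein and different import signals. Atp5g3 had 151, 152, 154 and 157 CPM with 4-OI, against 168, 166, 163 and 170.3 CPM with DMSO. The groups did not overlap, and the log2 fold change was -0.12 ± 0.02 (SE; adjusted p 0.000495, edgeR). Atp5g1 and Atp5g2 had log2 fold changes of -0.08 ± 0.03 (SE; adjusted p 0.0722, edgeR) and -0.07 ± 0.03 (SE; adjusted p 0.0529, edgeR) and were not called. In TPM, Atp5g3 made up 39.0% ± 0.844 of the 3 genes' sum with 4-OI and 40.2% ± 0.925 with DMSO. Atp5g2 made up 40.7% ± 1.54 with 4-OI and 39.7% ± 0.836 with DMSO, and Atp5g1 made up 20.3% ± 0.787 with 4-OI and 20.1% ± 0.178 with DMSO (SD, n = 4 each).

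Per length, the mitochondrially encoded genes stood above nearly all nuclear members. Apart from mt-Atp8 they averaged between 1714 TPM (mt-Atp6) and 9092 TPM (mt-Co1) with 4-OI, and between 1632 TPM (mt-Atp6) and 8822 TPM (mt-Co1) with DMSO. Tested nuclear members other than Atp5b averaged between 49.3 TPM (Ndufb4) and 855 TPM (Cox6c) with 4-OI, and between 44.7 TPM (Ndufb4) and 860 TPM (Cox8a) with DMSO. Atp5b averaged 8113 ± 648 TPM with 4-OI and 8358 ± 362 TPM with DMSO, where Atp5a1, with counts of like size, averaged 728 ± 11.5 TPM with 4-OI and 775 ± 11.3 TPM with DMSO (SD, n = 4 each). The mt-Atp8 level, 47198 ± 1999 TPM with 4-OI and 46158 ± 2126 TPM with DMSO (SD, n = 4 each), comes from a gene of 204 bases. TPM of genes shorter than a sequenced fragment, and of mt-Co2, mt-Co3 and mt-Atp6 without their copies, are uncertain.

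Promoters of nuclear members are known for sites of NRF1, of the ETS factor GABP and of YY1. RefSeq gave promoters (250 bases before to 50 after the start, GRCm38.p6) for 68 of 91 nuclear members, 64 of them tested. On either strand, CGCANGCG (core of the NRF1 site) stood in 35.9% of the 64, against 8.42% of 27025 genes with a promoter. CCGGAAG (ETS) stood in 25.0%, against 9.12% of all, and AANATGGC (YY1) in 23.4%, against 6.23%. TGACNNNGC, the core of the antioxidant response element, stood in 14.1%, against 12.5%, CCAAT in 40.6%, against 37.9%, and TATAAA in 9.38%, against 14.2%. Of the 9 called nuclear members with a promoter in the table, 3 held the NRF1 letters, 4 the ETS letters and 2 the YY1 letters. A match describes letters, not a bound site. The 64 members had enough counts to test, while the 27025 genes were taken whatever their level in these cells. Shares were not compared at like expression. Shown are the member with the largest fall and no match to NRF1, ETS or YY1, a complex II promoter with both NRF1 and ETS matches, and a complex IV promoter with 2 ETS matches. They are written 5′ to 3′ along the gene, with those matches, which do not overlap each other, in capitals: Ndufv3 at chr17:31519865-31520164 (plus strand), Sdhd at chr9:50603800-50604099 (minus strand) and Cox8a at chr19:7217567-7217866 (minus strand).
Ndufv3: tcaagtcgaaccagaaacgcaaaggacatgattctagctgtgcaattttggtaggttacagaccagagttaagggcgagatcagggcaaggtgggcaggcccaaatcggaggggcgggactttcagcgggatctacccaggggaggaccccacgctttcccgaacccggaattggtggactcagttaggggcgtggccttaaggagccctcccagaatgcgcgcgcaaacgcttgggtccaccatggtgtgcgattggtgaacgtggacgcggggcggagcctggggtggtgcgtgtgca
Sdhd: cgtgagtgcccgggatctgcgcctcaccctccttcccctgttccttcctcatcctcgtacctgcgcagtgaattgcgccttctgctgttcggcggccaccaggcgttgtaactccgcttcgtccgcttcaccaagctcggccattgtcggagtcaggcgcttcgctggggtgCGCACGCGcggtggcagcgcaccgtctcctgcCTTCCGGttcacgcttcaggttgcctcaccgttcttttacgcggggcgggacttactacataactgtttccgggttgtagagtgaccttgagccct
Cox8a: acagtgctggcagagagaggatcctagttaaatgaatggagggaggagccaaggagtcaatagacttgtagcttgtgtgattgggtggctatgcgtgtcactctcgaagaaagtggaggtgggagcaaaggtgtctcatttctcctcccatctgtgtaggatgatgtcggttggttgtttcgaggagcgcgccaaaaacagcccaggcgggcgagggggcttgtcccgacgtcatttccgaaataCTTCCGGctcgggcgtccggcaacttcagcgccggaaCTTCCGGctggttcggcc

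The regulators thought to act on these promoters are read here by their own transcripts. Of 12 tested nuclear regulators of respiratory genes, 1 rose and 5 fell, beside 19.3% of all genes higher and 19.6% lower. Nrf1 averaged 36.3 ± 0.697 CPM with 4-OI and 41.1 ± 2.76 CPM with DMSO (SD, n = 4 each), a log2 fold change of -0.18 ± 0.04 (SE; adjusted p 0.00322, edgeR). Gabpb2, a partner of the ETS factor GABP, had 118, 115, 117 and 113 CPM with 4-OI, against 151, 151, 152 and 149.9 CPM with DMSO, without overlap, a log2 fold change of -0.38 ± 0.02 (SE; adjusted p 1.07e-10, edgeR). Gabpa and Gabpb1, which encode other subunits of GABP, were not called (edgeR adjusted p 0.142 and 0.597). Pprc1, a coactivator of the PGC-1 family, and Yy1 fell by 0.11 and 0.09 on the log2 scale. The Pprc1 call was lost without 4-OI replicate 4 or DMSO replicate 1 or 4 (edgeR adjusted p 0.0521 to 0.0654), and the Yy1 call without 4-OI replicate 1 or DMSO replicate 2 or 4 (edgeR adjusted p 0.0528 to 0.0769). Perm1, known as a muscle regulator of mitochondrial genes, was low and fell, with a log2 fold change of -0.51 ± 0.14 (SE; adjusted p 0.00636, edgeR). Ppard, a nuclear receptor for fatty acids, was the gene that rose, with a log2 fold change of 0.50 ± 0.03 (SE; adjusted p 3.93e-10, edgeR). Ppargc1a, which encodes the coactivator PGC-1 alpha, was too low to test, at 0.263 ± 0.112 CPM with 4-OI and 0.208 ± 0.0523 CPM with DMSO (SD, n = 4 each).

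Larger changes than in any subunit were found in genes around the chain. Over 8 lists of related genes, 127 were tested, 27 rose and 21 fell, which is 37.8% beside 38.8% of all genes; Twnk, the mitochondrial helicase, stands in 2 lists. Among inhibitors and alternative entries of electrons, 5 of 13 rose and 3 fell, or 61.5% called beside 38.8% of all genes. Sqor, which passes electrons from sulfide to coenzyme Q, had 75.1, 80.4, 80.1 and 78.8 CPM with 4-OI, against 27.1, 29.5, 31.4 and 30.5 CPM with DMSO. Every 4-OI library lay far above every DMSO library, with a log2 fold change of 1.41 ± 0.04 (SE; adjusted p 3.65e-16, edgeR). The electron transfer flavoprotein route, which carries electrons from fatty acid oxidation to coenzyme Q, rose in all 3 of its genes. Etfdh had a log2 fold change of 0.36 ± 0.03 (SE; adjusted p 6.6e-08, edgeR), Etfb one of 0.27 ± 0.04 (SE; adjusted p 8.14e-06, edgeR) and Etfa one of 0.15 ± 0.03 (SE; adjusted p 0.00155, edgeR). Atpif1, the inhibitory protein of ATP synthase, had 67.5, 71.2, 68.9 and 73.6 CPM with 4-OI, against 58.3, 59.4, 54.3 and 59.1 CPM with DMSO. It rose, without overlap, by 0.28 ± 0.04 on the log2 scale (SE; adjusted p 2.72e-06, edgeR).

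Higd1a, a hypoxia-inducible partner of the respiratory complexes, had the largest fall around the chain. It had 36.2, 37.0, 37.1 and 38.1 CPM with 4-OI, against 52.7, 51.7, 56.9 and 59.0 CPM with DMSO. The groups stood apart, with a log2 fold change of -0.57 ± 0.04 (SE; adjusted p 1.15e-09, edgeR). Prodh, which feeds electrons from proline, and Gpd2, which feeds them from glycerol 3-phosphate, fell by 0.36 and 0.09 on the log2 scale. In coenzyme Q synthesis 3 of 13 genes rose and 1 fell: Coq8b by 0.40, Coq3 by 0.34 and Pdss2 by 0.25, with Pdss1 at -0.25. That is 30.8% called, beside 38.8% of all genes. Pdss1 and Pdss2 are the subunits of 1 enzyme, which builds the side chain of coenzyme Q, and they moved in opposite directions.

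Cytochrome c and the inner membrane carriers gave 3 rises and 3 falls in 6 tested genes, or 100% called beside 38.8% of all genes. Slc25a4 and Slc25a5 encode forms of the ADP/ATP carrier. Slc25a5 had 371, 393, 374 and 386 CPM with 4-OI, against 332, 335, 321 and 339 CPM with DMSO. Slc25a4 had 366, 379, 370 and 365 CPM with 4-OI, against 405, 403, 387 and 409 CPM with DMSO. Neither gene overlapped between groups, and the log2 fold changes were 0.20 ± 0.03 for Slc25a5 (SE; adjusted p 3.32e-06, edgeR) and -0.12 ± 0.02 for Slc25a4 (SE; adjusted p 0.00074, edgeR). Cycs, cytochrome c itself, averaged 127 ± 6.54 CPM with 4-OI and 136 ± 1.68 CPM with DMSO (SD, n = 4 each). Its log2 fold change was -0.10 ± 0.03 (SE; adjusted p 0.0153, edgeR), and the call was lost without 4-OI replicate 1 or 2 or DMSO replicate 4 (edgeR adjusted p 0.0528 to 0.0546). Slc25a27 and Slc25a14, low in these cells, rose by 0.71 and 0.34 on the log2 scale, the Slc25a14 call being lost without DMSO replicate 4 (edgeR adjusted p 0.0695). Slc25a3, the phosphate carrier, fell by 0.08.

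Assembly factors moved in both directions. The share called was 33.3% for complex I and 29.4% for complexes II to V, beside 38.8% of all genes. For complex I, 3 of 15 rose and 2 fell, with Ndufaf6 at 0.22, Ndufaf7 at 0.17, Foxred1 at -0.21 and Tmem186 at -0.20 on the log2 scale. The Ndufaf6 call was lost without 4-OI replicate 3 or DMSO replicate 1 (edgeR adjusted p 0.0579 to 0.0683). The Tmem186 call was lost without 4-OI replicate 2 or DMSO replicate 1 or 3 (edgeR adjusted p 0.0519 to 0.0712). For complexes II to V, 5 of 34 rose and 5 fell. Coa3 rose by 0.25 ± 0.05 on the log2 scale (SE; adjusted p 0.000531, edgeR), and Cox11, which brings copper to complex IV, fell by 0.30 ± 0.06 (SE; adjusted p 0.000219, edgeR). Pet117 was at -0.31 and Uqcc2, an assembly factor of complex III, at -0.21.

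Of 17 genes of mitochondrial DNA transcription and replication, 3 rose and 1 fell, which is 23.5% called beside 38.8% of all genes. Tfam, the packaging and transcription factor, was not called, at 54.6 ± 2.51 CPM with 4-OI and 55.4 ± 1.56 CPM with DMSO (SD, n = 4 each; log2 fold change -0.02 ± 0.04, adjusted p 0.669, edgeR). Tfb2m, the partner that helps the mitochondrial RNA polymerase open DNA, rose by 0.13 and Mterf3 by 0.19 on the log2 scale, the Mterf3 call being lost without DMSO replicate 4 (edgeR adjusted p 0.0529). Mterf1b rose by 0.44, and that call was lost in 6 of the 8 fits that left out 1 library (edgeR adjusted p 0.0614 to 0.0956), all but those without 4-OI replicate 1 or DMSO replicate 4. Lonp1, the matrix protease, fell by 0.19. Of 18 genes of mitochondrial RNA stability and processing, 4 rose and 1 fell, or 27.8% called. Lrpprc, which keeps mitochondrial messages stable and polyadenylated, averaged 139 ± 1.29 CPM with 4-OI and 149 ± 3.20 CPM with DMSO (SD, n = 4 each), a log2 fold change of -0.10 ± 0.02 (SE; adjusted p 0.00278, edgeR). Hsd17b10, a subunit of mitochondrial RNase P, rose by 0.23, and Fastkd2 and Fastkd1 by 0.18 and 0.22, the Fastkd1 call being lost without 4-OI replicate 3 (edgeR adjusted p 0.0541).

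**Figure D4:**
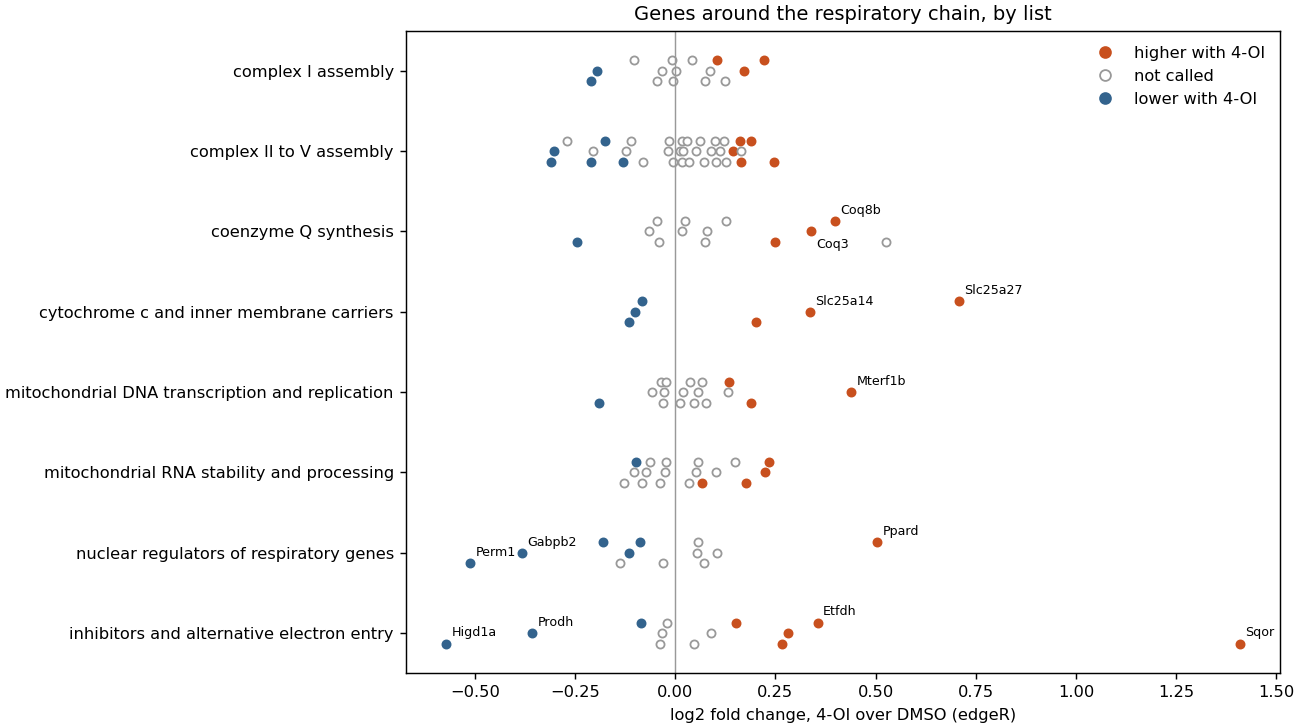
Log2 fold change, 4-OI over DMSO (edgeR), of the tested genes in 8 lists around the respiratory chain; each point is a gene, filled where it passed the test. Most points lie within 0.5 of 0, with Sqor at 1.41 and Higd1a at -0.57 as the extremes.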

How the data were processed

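Per the submitters' processing notes, the genome build is GRCm38 and the tools are RSEM 1.3.3, STAR 2.7.8a, cutadapt 2.3, MultiQC 1.7 and FastQC 0.11.8, with no roles given; the sources used here state neither annotation release nor strand setting. Per the labels, the RNA was polyA RNA, sequenced as paired-end reads. The authors deposited expected counts (whole in every cell, so not rounded), TPM and FPKM for 55492 genes.

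The expected counts were tested with edgeR 4.0.16 (R 4.3.3): filterByExpr with a minimum count of 10, TMM factors, two-sided quasi-likelihood F test, Benjamini-Hochberg adjustment over 13531 genes, calls at 0.05. The common biological coefficient of variation was 3.10%. CPM are counts scaled to library total times TMM factor, and SE is the log2 fold change over the root of F. Levels per length are the deposited TPM. TPM and FPKM were also tested with limma 3.58.1 on log2(value + 1), and counts with DESeq2 1.42.0. Positions and transcripts came from GENCODE M21 (55141 identifiers matched). The test was checked on simulated data.

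Replicate numbers in the labels were not used as pairs in the main test. Deviations of same-numbered libraries correlated at -0.02 to 0.07, under a threshold of 0.1. Such weak correlations do not show that the libraries were unpaired. Chi-square per degree of freedom between libraries of a group was 1.90 to 4.79, above sampling noise, and each library was counted once. That spread does not show that the libraries came from separate cultures. Members and lists were chosen with earlier results of these data known. Genes named are the mitochondrial members, the nuclear members called, the extremes and highest TPM of each complex, isoform pairs, and up to 4 called genes of each list. Sdhb, Etfa, Etfb, Atpif1, Gpd2, Pprc1, Yy1, Gabpa, Gabpb1 and Slc25a3 were added after their values were seen. The rule left out 14 names with a pseudogene suffix; of these Ndufb1-ps was the most counted, averaging 510.4 counts, with a log2 fold change of 0.03 (adjusted p 0.732, edgeR). Floors of 3 counts cover counting error only. Of the called nuclear members, 1 is included in the counts and not reported here by name.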

Additional observations from a re-analysis of the deposited data

Results flagged for a closer look

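In 6 named genes a single library stood far from the others of its group (Dixon's criterion for 4 values), which chance gives in about 1 in 20 groups. With as many genes as are named here, chance alone would give several such cases. These 6 are therefore not shown to be unusual. mt-Nd2 had 2227 CPM in 4-OI replicate 4, against 2073 to 2084 CPM in the other 4-OI libraries. Cox8a had 144 CPM in 4-OI replicate 1, against 153 to 154 CPM in the other 4-OI libraries. Coa3 had 24.4 CPM in 4-OI replicate 1, against 27.3 to 27.7 CPM in the other 4-OI libraries. Ndufb10 had 59.6 CPM in DMSO replicate 3, against 64.7 to 65.7 CPM in the other DMSO libraries. Nrf1 had 37.0 CPM in DMSO replicate 2, against 42.1 to 43.1 CPM in the other DMSO libraries. Mterf1b had 1.92 CPM in DMSO replicate 4, against 1.36 to 1.41 CPM in the other DMSO libraries.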

How the results depend on the processing

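Depth limits genes of few counts, and calls here rest on changes close to the spread between libraries. Of 18 members called, 9 kept their call in all 8 fits that left out 1 library, and 33 of 48 related genes did. The share of all called genes that kept their call was not computed, so these counts have no background to be read against. Over those fits 1 to 3 members were higher and 9 to 23 lower, the mitochondrial median was -0.12 to -0.06 and the nuclear median -0.04 to -0.0031. All 18 calls were shared when nuclear genes alone set the scaling, 17 with DESeq2 and 17 with nuclear copies added. With library totals in place of TMM factors, 3 members were higher and 11 lower, and over all genes 3021 higher and 2323 lower, against 2607 and 2646, as the median of all genes moved by 0.02. Without a filter on low counts, 6 members were higher and 15 lower, mt-Co2, mt-Co3 and mt-Atp6 among the gains. Over all 27110 genes 10.1% were then higher and 9.13% lower, 19.2% in all. The members' share no longer lay below this background, which adds genes of few counts. Its calls numbered 5200, against 5253 over 13531 genes with the filter. Shares among genes at 10 CPM or more were not computed without the filter. On log2(TPM + 1), limma called 4 members higher and 12 lower, 1620 of all genes lower and 12 related genes lower, with a mitochondrial median of -0.0032. On log2(FPKM + 1) it called 4 members higher and 8 lower, 1535 of all genes lower and 10 related genes lower, with a mitochondrial median of 0.0053, so this median turned sign, and 5 of 7 mt-Nd genes were lower in both. GC and length correction gave 2 higher and 21 lower. The causes were not tested. With the replicate number as a block, 22 members were called, 2 higher and 20 lower, including all 18; 2 of 4 4-OI libraries correlated best with the DMSO library of their own number.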

Other observations

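The mitochondrial ribosomal RNAs, which are not subunit genes, moved in opposite directions. mt-Rnr1, the small-subunit RNA, averaged 252 ± 11.6 CPM with 4-OI and 279 ± 14.6 CPM with DMSO (SD, n = 4 each), a log2 fold change of -0.15 ± 0.04 (SE; adjusted p 0.00247, edgeR). mt-Rnr2, the large-subunit RNA, averaged 2618 ± 50.9 CPM with 4-OI and 2464 ± 82.7 CPM with DMSO (SD, n = 4 each), a log2 fold change of 0.09 ± 0.03 (SE; adjusted p 0.0147, edgeR). The groups overlapped in both, and the libraries were made from polyA RNA, which does not sample ribosomal RNA evenly. All 22 mitochondrial transfer RNA rows were at 0 in every library.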
